A study of Jaculus jaculus with 29 samples.

Results

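The genes described here encode oxidative phosphorylation, the machinery with which mitochondria make ATP. They comprised 55 of the 29170 genes counted. Of these, 42 were nuclear genes named by the authors as subunits or assembly factors of complexes I to V (symbols beginning Ndufa, Ndufb, Ndufc, Ndufs, Ndufv, Uqcr, Cox4 to Cox8, Atp5 or Sdh), and 13 were the protein-coding genes of the mitochondrial chromosome. The choice used names and position, and no levels measured here. The names came from the authors' deposited tables, which list only part of the 29170 genes. How that part was chosen is not known, so levels may have entered through it. All 55 passed the filter on low counts and were among the 17558 genes tested. Because of that prior list, their passing is not an independent result.

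RNA was sequenced from the supraoptic nucleus of the lesser Egyptian jerboa (Jaculus jaculus), a desert rodent. This hypothalamic nucleus holds the magnocellular neurons that release vasopressin and oxytocin. Control animals had free access to water (10 libraries, 5 female and 5 male). Dehydrated animals had 11 days of water restriction (10 libraries, 6 female and 4 male), and Rehydrated animals were restricted for 7 days before water was returned for 3 days (9 libraries, 4 female and 5 male). All animals were kept singly on dry food at 25 °C with 12 hours of light. Each library came from 12 bilateral punches of 1 mm cut from frozen sections of 100 µm, so it holds neurons, glia and vessels together. In such bulk tissue, fewer cells of a type and less RNA per cell cannot be told apart.

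In oxidative phosphorylation, complex I takes electrons from NADH and complex II takes them from succinate. Complex III passes them through cytochrome c to complex IV, which reduces oxygen, and complex V uses the resulting proton gradient to make ATP. The mitochondrial chromosome supplies core subunits of every complex except complex II, and nuclear genes supply the rest together with the factors that assemble them, so both genomes must contribute to 1 machine. Magnocellular neurons fire and synthesise peptide hormone at high rates when plasma osmolality rises, work that uses ATP. The question the design puts to these genes is whether their transcripts differed after water restriction, and whether any difference remained after water was returned.

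Library totals lay between 10797577 counts (Control M01) and 18856620 counts (Dehydrated F04). Control M01 stood apart from the other 28 libraries over the tested genes as a whole: on the first principal component it lay at -145, and the others between -7.55 and 14.1. It also had the fewest detected genes, 19384. For this reason values without it stand beside those it moved. Of 14 listed markers of magnocellular neurons all 14 passed the filter. In Dehydrated against Control 8 of them were higher and 6 lower, with a median log2 fold change of 0.12. At an adjusted p under 0.05 in edgeR, 3 (Avp, Pdyn and Caprin2) rose, where 0.125% of all tested genes passed in either direction. Without Control M01 2 of the 3 did, and Avp had an adjusted p of 0.0879 in edgeR. The sex label differs from the letter in the library name for Control F03, for Control M05 and for Dehydrated M02, and the label was used.

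Mitochondrially encoded transcripts made up 2.6% to 5.02% of all counts. Within them COX1, the catalytic subunit of complex IV, took 33.5% ± 2.79 (SD, n = 29), COX3 took 21.5% ± 1.68, and COX2, which carries the copper centre that accepts electrons from cytochrome c, took 9.84% ± 1.53. At the other end were ND5 with 1.20% ± 0.306 and ND6, a complex I subunit and the only one of the 13 on the other strand, with 0.639% ± 0.163. Per kilobase of gene, the levels of COX3 (9095 CPM per kb, where CPM is the usual depth-normalised count, with library totals scaled by TMM), COX1 (7137 CPM per kb) and COX2 (4775 CPM per kb) were the highest, and those of ND6 (404 CPM per kb) and ND5 (220.3 CPM per kb) the lowest. Some neighbours on the chromosome overlap (ATP8 and ATP6 by 46 bases, ND4L and ND4 by 7, ND5 and ND6 by 4, ATP6 and COX3 by 1). Their levels are therefore uncertain at those ends, most of all for ATP8, which is 207 bases long. The counts also carry no strand, so fragments from either strand count to a gene over its whole length. The level of ND6 (525 bases) is therefore uncertain throughout.

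The 42 nuclear members together held 0.340% to 0.575% of all counts. The highest per kilobase were Ndufa4, now assigned to complex IV, at 321 CPM per kb, Cox7a1 at 224 CPM per kb and Cox5a at 215 CPM per kb. The lowest were Ndufaf6, an assembly factor of complex I, at 5.14 CPM per kb and Cox4i2, the alternative isoform of complex IV subunit 4, at 2.07 CPM per kb. Every mitochondrially encoded gene except ND5 thus lay above every nuclear member on this scale, ND5 falling below Ndufa4 and Cox7a1. For 3 nuclear members the name is uncertain. Uqcr11 (171 bases on chromosome 9) and Uqcrb (chromosome X) drew 4025 and 4552 counts, against 17364 and 51057 at the genes their descriptions cite on chromosomes 15 and 2, and a copy of Ndufv1 (45526 counts) lies near it on chromosome 1 with 14833 counts.

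The mean log2 CPM over the 42 nuclear genes was 5.99 ± 0.25 in Control (SD, n = 10), 5.88 ± 0.07 in Dehydrated (n = 10) and 5.90 ± 0.08 in Rehydrated (n = 9). Control M01 lay at 6.63, and the other Control libraries between 5.75 and 6.05. Without it the Control mean was 5.91 ± 0.11, so the difference from Dehydrated went from -0.11 to -0.04 and that from Rehydrated from -0.08 to -0.01. Over the 13 mitochondrially encoded genes the means were 10.35 ± 0.22, 10.40 ± 0.17 and 10.54 ± 0.33. Rehydrated M04 lay highest of all libraries at 11.25, followed by Control F03 at 10.86 and Rehydrated M08 at 10.83. Rehydrated lay above Control by 0.20, by 0.11 without Rehydrated M04, and by 0.05 without Rehydrated M04 and M08. It lay above Dehydrated by 0.15, by 0.06 without Rehydrated M04, and by 0.003 without Rehydrated M04 and M08. Control F03 stayed in Control for these values. The groups overlapped for both sets, as the plot of set means by library shows. Across all 29 libraries the nuclear and the mitochondrial means had a Pearson r of -0.04 and a Spearman rho of -0.06, a description over libraries that share depth and scaling.

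**Figure D1:**
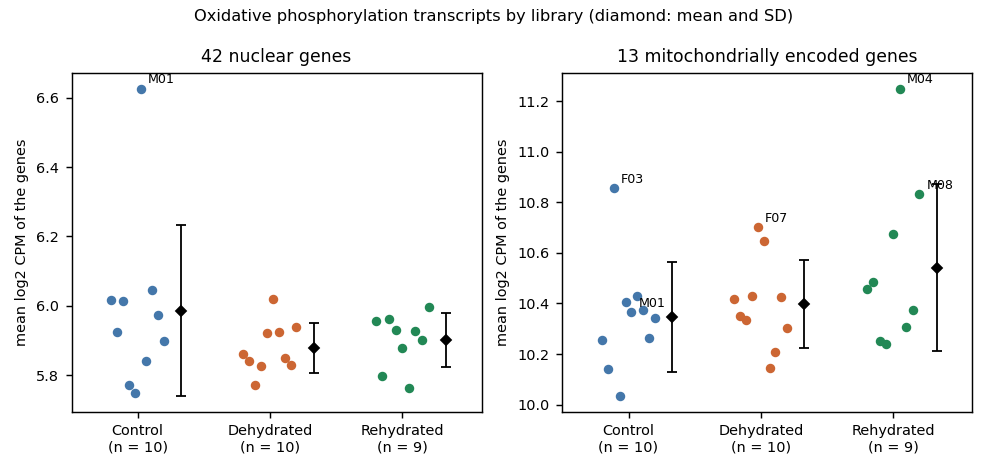
Mean log2 CPM of the 42 nuclear genes (left) and the 13 mitochondrially encoded genes (right) in each library, by group; each point is a library, and the diamond with its bar is the group mean and SD. Control M01 stands above all other libraries on the left at 6.63, and Rehydrated M04 on the right at 11.25.

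Dehydrated was first compared with Control, which asks what differed after 11 days of restriction. None of the 55 members passed the threshold (an adjusted p under 0.05 in the quasi-likelihood test of edgeR, with the adjustment of Benjamini and Hochberg over all genes), where 0.125% of all tested genes did (0.0969% without Control M01), and DESeq2 called 0 as well. The nuclear members were lower by a small amount, 37 of 42 with a median log2 fold change of -0.12, against 50.8% of all genes lower and a median of -0.00. The mitochondrially encoded members were not: 9 of 13 were higher, with a median of 0.03, where 49.2% of all genes were higher. At an unadjusted p under 0.05, 6 nuclear members were lower and 0 higher, and 1 mitochondrial member was higher and 0 lower (in DESeq2 the counts were likewise 6 and 1). Among all genes 3.7% were lower and 2.67% higher at that p.

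Leaving out Control M01 removed most of the nuclear shift. The median went to -0.04, with 30 of 42 lower where 49.1% of all genes were, and 2 lower at an unadjusted p under 0.05 where 2.6% of all genes were. These were Cox4i2 and Ndufs4. For the mitochondrial members the median went to 0.09, with 10 of 13 higher where 50.9% of all genes were, and 1 at an unadjusted p under 0.05 where 3.14% of all genes were higher. That median also turned on single other libraries: it was -0.01 without Dehydrated F07 (6 of 13 higher) and 0.13 without Control F03 (12 of 13 higher). No member was called whichever of the 29 libraries was left out.

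By complex, nuclear members of complex IV were lower in 5 of 5 cases with a median of -0.18, and those of complex V, the ATP synthase, in 5 of 5 with a median of -0.14. Complex I, the largest, had 20 of 23 lower with a median of -0.12. Its 11 accessory subunits had a median of -0.14, its 7 core subunits -0.12 and its 5 assembly factors -0.10. Complex III had 3 of 4 lower with a median of -0.12. Among these 4 are Uqcr11 and Uqcrb, whose names are uncertain. The genes that their descriptions cite lay at -0.08 and -0.01. Complex II, which is all nuclear and also serves the citric acid cycle, had 4 of 5 lower with a median of -0.03. Without Control M01 these medians were -0.09 for complex IV, -0.05 for V, -0.03 for I, -0.04 for III and 0.02 for II.

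Cox4i2 (ENSJJAG00000014226, chromosome 8, 110527383 to 110538819, plus strand, mJacJac1) had the largest difference of the 55. This subunit isoform is known for its part in oxygen sensing. Its Control libraries ran from 1.33 to 7.04 CPM with a median of 2.72, and the Dehydrated libraries from 0.881 to 2.25 CPM with a median of 1.80. None of the 10 Dehydrated libraries lay above the Control median, though the groups overlapped, and the highest Control value was Control M01. The means were 2.87 ± 1.61 and 1.71 ± 0.464 CPM, a log2 fold change of -0.69 (SE 0.25, unadjusted p = 0.0093, adjusted p = 0.630). Without Control M01 the Control mean was 2.40 ± 0.713 CPM and the log2 fold change -0.48, with an adjusted p of 0.844 in edgeR. Over the alternative settings its smallest adjusted p was 0.392. The level is low, so counting noise weighs more here than for other members.

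Ndufs4 (chromosome 20, 23899209 to 23974642), an accessory subunit needed for a stable complex I, came next. Control libraries ran from 79.7 to 218 CPM with a median of 98.9, and Dehydrated libraries from 77.6 to 99.6 CPM with a median of 87.9. The 218 CPM was again Control M01, and the next Control library lay at 107 CPM. The log2 fold change was -0.29 (SE 0.12, adjusted p = 0.706), and -0.13 without Control M01. The other accessory subunits of complex I with an unadjusted p under 0.05 were Ndufa9 at -0.16, Ndufa13 at -0.22 and Ndufa8 at -0.17. Atp5e, the epsilon subunit of the catalytic head of complex V, lay at -0.23. Without Control M01 these 4 lay at -0.11, -0.11, -0.09 and -0.13.

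The core subunits Sdha and Ndufs1, both longer than 2000 bases, lay near 0. The core subunits of complex I as a class lay lower, at the median given above. Sdha, the flavoprotein of complex II, ran from 408.8 to 516 CPM in Control and from 390.2 to 504.7 CPM in Dehydrated, a log2 fold change of -0.03 (SE 0.06). Ndufs1, the largest core subunit of complex I, had a mean of 220.3 ± 18.6 CPM in Control against 224 ± 10.7 CPM after restriction, a log2 fold change of 0.02 (SE 0.06). The nuclear members furthest above 0 were Sdhaf3, which assembles complex II, at 0.17 (SE 0.16), Uqcr11 at 0.06 (SE 0.16) and Ndufaf5 at 0.06 (SE 0.09). The gene that the description of Uqcr11 cites lay at -0.08.

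Among the mitochondrially encoded members COX1 (chromosome MT, 5350 to 6894) had the smallest p. Control libraries ran from 8707 to 11017 CPM with a median of 10001, and Dehydrated libraries from 9058 to 12388 CPM with a median of 11457. In 8 of 10 Dehydrated libraries the level lay above the Control median, and the ranges overlapped widely. The log2 fold change was 0.15 (SE 0.07, unadjusted p = 0.0404, adjusted p = 0.747) and the same without Control M01. COX3 lay at 0.07, COX2 at -0.01 and CYTB, the only mitochondrial subunit of complex III, at -0.01. For complex V, ATP8 lay at 0.22 (SE 0.16) and ATP6 at -0.01. The 7 complex I genes ran from -0.21 (ND6) to 0.21 (ND4L). Both ends rested on Control M01, without which ND6 lay at -0.10 and ND4L at 0.10, and the 7 ran from -0.10 to 0.25 (ND3). For ND3, 10 of 10 Dehydrated libraries exceeded the median of Control, at 445.5 to 677 CPM against 428, but Control M01 and Control F03 were higher still, at 1169 and 856 CPM.

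**Figure D2:**
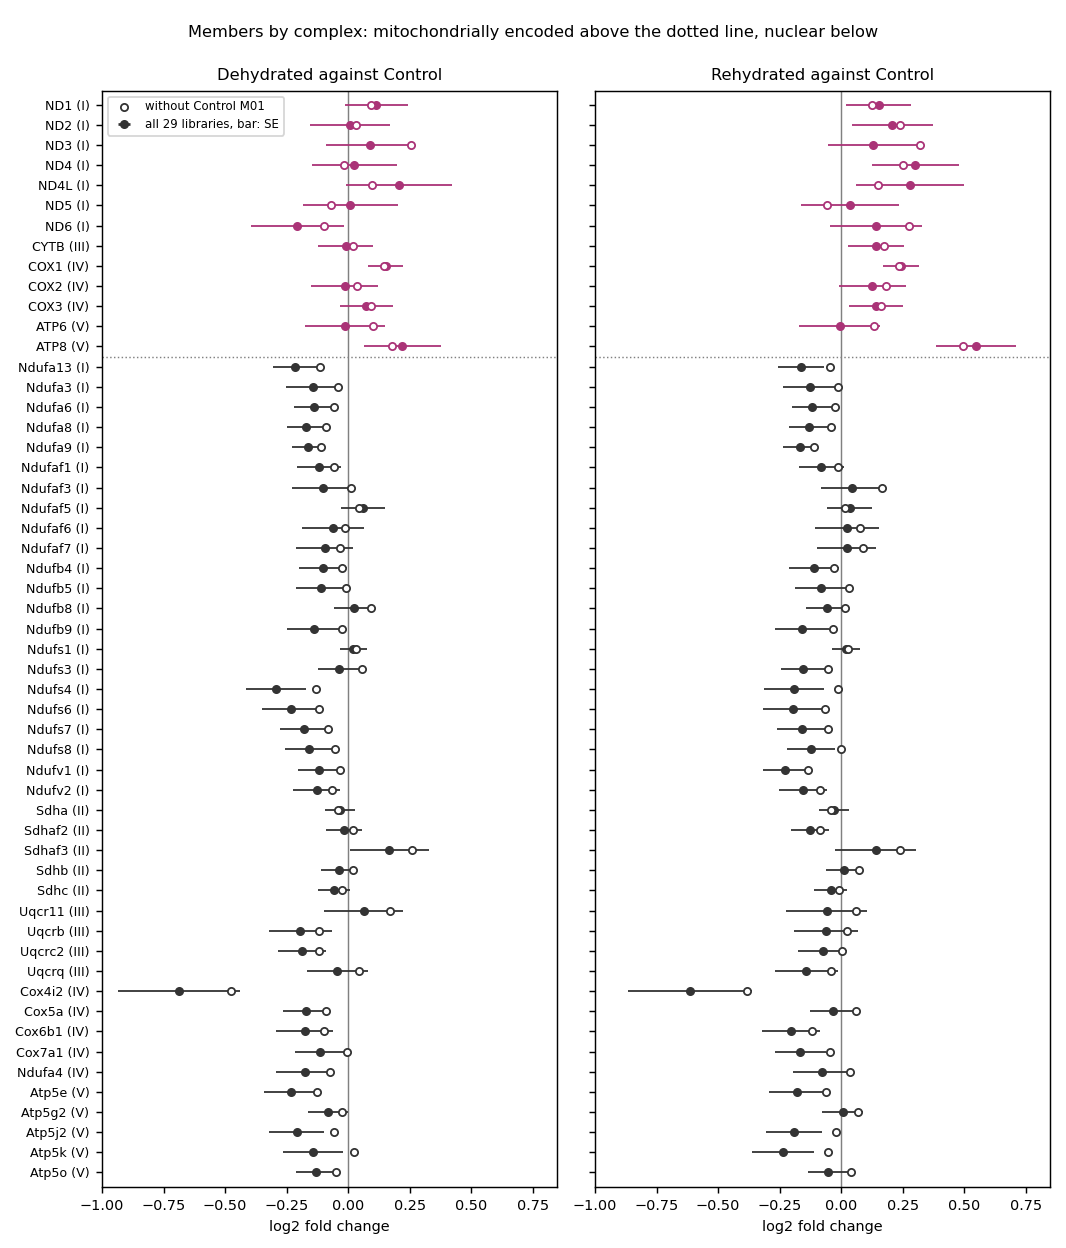
Log2 fold change of the members, 1 nuclear gene left out, in Dehydrated (left) and Rehydrated (right) against Control, in order of complex; filled points use all 29 libraries with the SE as bar, and open points leave out Control M01. Nuclear filled points lie mostly left of 0 (medians -0.12 and -0.11) and their open points near it, while on the right 12 of 13 mitochondrial points lie right of 0.

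Rehydrated was then compared with the same Control libraries, so this comparison is not independent of the first. No member was called by edgeR or DESeq2, and edgeR called 0.0% of all genes, with or without Control M01. The nuclear members again lay slightly below Control, 34 of 42 with a median of -0.11, where 49.2% of all genes were lower. Oligodendrocyte markers (8 of 12 on the list tested) also lay below Control, 7 of 8 in Rehydrated with a median of -0.45 and 8 of 8 in Dehydrated with a median of -0.31 (-0.48 and -0.32 without Control M01), with 0 called. Their part in the nuclear values was not tested. The mitochondrially encoded members lay above Control, 12 of 13 with a median of 0.14, where 50.8% of all genes were higher. At an unadjusted p under 0.05, 3 nuclear members were lower and 0 higher (all genes: 4.17% lower), and 2 mitochondrial members were higher and 0 lower (all genes: 3.3% higher). DESeq2 gave the same 3 and 2.

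The nuclear median was -0.01 without Control M01, with 26 of 42 lower where 47.8% of all genes were, and 1 (Ndufv1) at an unadjusted p under 0.05 where 3.94% were lower. The mitochondrial median was 0.18 without Control M01, with 12 of 13 higher where 52.2% of all genes were. COX1, ATP8 and ND3 then had an unadjusted p under 0.05, where 4.03% of all genes were higher at that p. The median was 0.07 without Rehydrated M04, when 9 of 13 were higher. Without Control F03 it was 0.22, with 13 of 13 higher. Blood-cell markers (4 of 8 on the list tested; Hbb, Hba-a1, Hbb-bs and Hbb-bt were not) had a summed level of 995 CPM in Rehydrated M04, the highest of the 29 libraries. It ran from 116 to 811 CPM in Control, 35.02 to 190.5 CPM in Dehydrated and 36.4 to 995 CPM in Rehydrated. Its part in the mitochondrial values was not tested.

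COX1 ran from 9557 to 15446 CPM in Rehydrated with a median of 11640.2, and in 8 of 9 libraries it lay above the Control median. The highest was Rehydrated M04, and the lowest lay within the Control range. The means were 10071 ± 806 CPM in Control and 11960 ± 1829 CPM in Rehydrated, a log2 fold change of 0.24 (SE 0.07, unadjusted p = 0.0021, adjusted p = 0.467). Without Rehydrated M04 it was 0.19, the lowest value over all settings tried. The smallest adjusted p over those settings was 0.212, in DESeq2.

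ATP8 (chromosome MT, 7789 to 7995), a small subunit of the membrane part of complex V, had the largest mitochondrial difference. Control libraries ran from 285 to 553 CPM with a median of 383, and Rehydrated libraries from 352 to 1040.1 CPM with a median of 499.8. Rehydrated M06 and M04, at 1040.1 and 919 CPM, lay far above the other Rehydrated libraries, which reached 595 CPM. The log2 fold change was 0.55 (SE 0.16, unadjusted p = 0.0020, adjusted p = 0.467), and 0.42 without Rehydrated M06. Its smallest adjusted p over the settings was 0.160, in DESeq2. As a share of mitochondrially encoded counts ATP8 was 1.26% ± 0.183 in Control, 1.38% ± 0.203 in Dehydrated and 1.63% ± 0.649 in Rehydrated. Its partner in the same transcript, ATP6, lay at -0.01 (SE 0.16), and 0.13 without Control M01.

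The 7 mitochondrial genes of complex I were all higher than Control in Rehydrated, from 0.04 (ND5) to 0.30 (ND4), none with an unadjusted p under 0.05. Without Rehydrated M04, 4 of the 7 were higher, and without Control M01 6 of the 7, with ND5 at -0.06, ND4L at 0.15 and ND6 at 0.27. CYTB lay at 0.14, COX2 at 0.13 and COX3 at 0.14. ND3 was at 0.13, and at 0.32 without Control M01, with an unadjusted p of 0.0443.

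**Figure D3:**
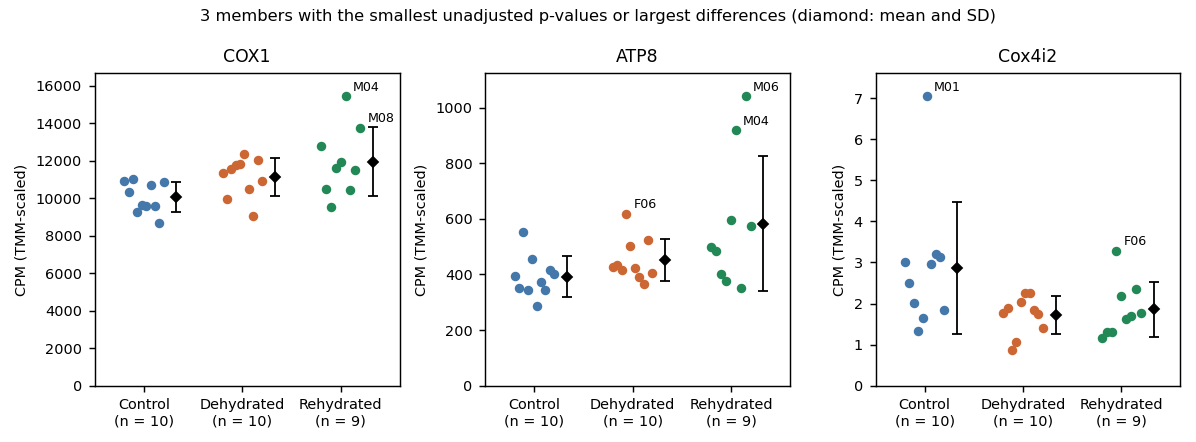
CPM of COX1, ATP8 and Cox4i2 in each library by group (linear axes from 0); points are libraries, and the diamond with its bar is the group mean and SD. The highest points are Rehydrated M04 for COX1, Rehydrated M06 for ATP8 and Control M01 for Cox4i2, and the groups overlap in all 3 panels.

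Of the nuclear members in Rehydrated, Cox4i2 was again the lowest against Control. Its Rehydrated libraries ran from 1.17 to 3.29 CPM with a median of 1.701, 1 of 9 above the Control median, and the log2 fold change was -0.61 (SE 0.25, adjusted p = 0.592; -0.38 without Control M01). Ndufv1, the NADH-binding core subunit of complex I, ran from 90.5 to 167 CPM in Control and from 77.3 to 104 CPM in Rehydrated, a log2 fold change of -0.23 (SE 0.09, adjusted p = 0.587; -0.14 without Control M01). Ndufa9 lay at -0.17 with an unadjusted p of 0.0232. Atp5k, a subunit of the membrane part of complex V, lay at -0.24, and at -0.05 without Control M01. Cox6b1, which faces the intermembrane space in complex IV, lay at -0.20, and at -0.12 without Control M01.

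Of the 35 nuclear structural subunits 32 were lower in Rehydrated than in Control, with a median of -0.13, and of the 7 assembly factors 2 were, with a median of 0.02. Without Control M01 24 of the 35 were lower with a median of -0.03, and 2 of the 7 with a median of 0.08. Of 23 further assembly factors outside the naming rule, 17 were lower with a median of -0.06. Sdhaf3 at 0.14, Ndufaf3 at 0.05 and Ndufaf5 at 0.04 were the highest nuclear values. By complex the medians were -0.17 for IV, -0.18 for V, -0.12 for I, -0.07 for III and -0.03 for II. Without Control M01 they were -0.05, -0.02, -0.01, 0.01 and -0.01. The difference between subunits and assembly factors was not tested.

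Rehydrated was also set against Dehydrated, which asks what differed once water was back. No member was called (0.0228% of all genes were). The nuclear members had 25 higher and 17 lower with a median of 0.02, where 48.6% of all genes were lower. None had an unadjusted p under 0.05 in edgeR or DESeq2, against 1.84% of all genes lower and 2.04% higher in edgeR. Without Control M01, 1 nuclear member (Cox5a) was higher at that p, where 3.22% of all genes were lower and 3.29% higher. All 13 mitochondrially encoded members were higher, where 51.4% of all genes were, with a median of 0.09. In edgeR 0 of them had an unadjusted p under 0.05, and in DESeq2 1. Without Rehydrated M04, 8 of 13 were higher with a median of 0.04. The largest values were those of ND6 at 0.35 (SE 0.19) and ATP8 at 0.33 (SE 0.16). Single libraries weighed on both. ND6 had medians of 201 CPM in Dehydrated and 219 CPM in Rehydrated, with Dehydrated M05 at 58.9 CPM and Rehydrated M04 at 459 CPM. ATP8 had medians of 425 and 499.8 CPM, with Rehydrated M06 and M04 far above the other Rehydrated libraries. Among nuclear genes Ndufaf3 lay at 0.15, Cox5a, a structural subunit of complex IV, at 0.14, and Uqcrb at 0.13. Uqcr11 and Ndufs3 lay at -0.12. The genes that the descriptions of Uqcr11 and Uqcrb cite lay at 0.07 and 0.11.

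Single libraries set much of the spread of the mitochondrial genes. Rehydrated M04 was the highest of all 29 libraries in 8 of 13 mitochondrial genes, where it was so in 6.11% of all genes tested, and the lowest of the Rehydrated libraries in 19 of 42 nuclear members. Its mitochondrial share of counts was 5.02%, against 4.29% in Rehydrated M08, the next. The first and last numbers in the column header of Rehydrated M04 lie outside the run of those of all other libraries, and its middle number lies within it. The labels do not say what these numbers stand for, and their part in its values was not tested. Control F03 was the highest Control in 9 of 13, with a share of 3.92%. It also had the highest summed level of oligodendrocyte precursor markers (6 of 6 tested) of all libraries, 659.6 CPM, where Control began at 226 CPM, Dehydrated ran from 273 to 382 CPM and Rehydrated from 181 to 519.9 CPM. The part of those cells in the mitochondrial values was not tested.

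Dehydrated M05 stood apart in ND6. ND6 was at 58.9 CPM in Dehydrated M05 and at 169.8 to 213 CPM in the other Dehydrated libraries, while the remaining mitochondrial genes of that library lay within the range of the other Dehydrated libraries. ND6 was also high in Rehydrated M04 (459 CPM) and Control M01 (389 CPM). ND4L, a small membrane subunit of complex I, was at 257 CPM in Control M01 and at 998 to 2419 CPM in the other Controls. Of the Controls, Control M01 had the highest ND3, ND6, COX2 and ATP6 and the lowest ND1, ND4L, ND5 and ATP8. The mitochondrial genes of that library did not shift together, as the plot of mitochondrial genes by library shows.

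**Figure D4:**
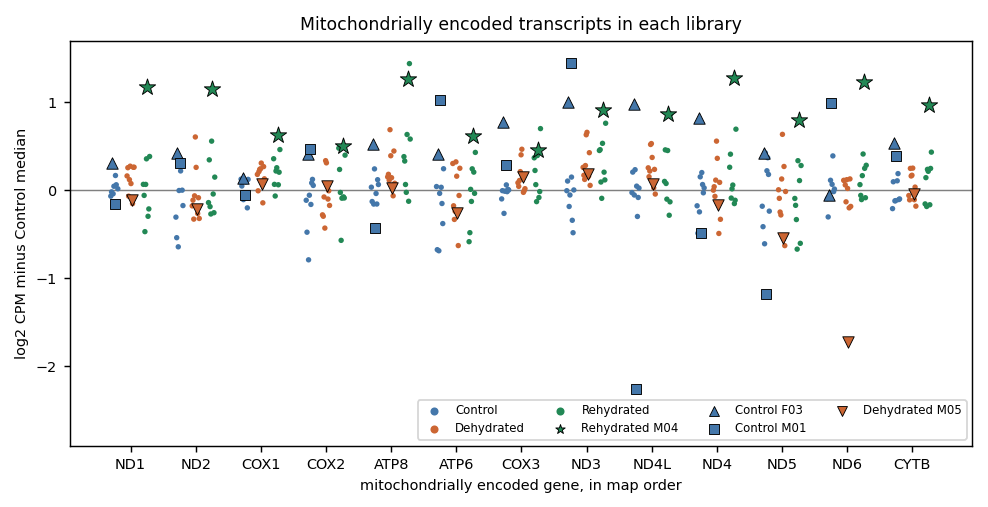
Log2 CPM of each mitochondrially encoded gene minus the Control median, for all 29 libraries in map order of the genes; small dots are libraries, and 4 libraries have their own symbol. Stars (Rehydrated M04) lie above 0 for all 13 genes, the square (Control M01) falls far below for ND4L, and the inverted triangle (Dehydrated M05) for ND6.

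The nuclear members of Control M01 shifted together. This library was the highest of all 29 in 39 of the 42, where it was so in 24.6% of all genes tested, and the highest Control in 39, against 30.6% of all genes. Its median difference from the mean of the other Controls was 0.73 on the log2 scale for nuclear and 0.24 for mitochondrial members, against -0.00 for all genes. The excess was 0.94 for complex IV, 0.84 for V, 0.72 for III, 0.68 for I and 0.32 for II. It varied with gene length: 0.85 for the 22 members under 1000 bases, 0.61 for the 16 from 1000 to 2000 bases and -0.01 for the 4 of 2000 bases or more. For all genes the same classes gave 0.26, 0.36 and -0.22. Of the 4 long members Ndufaf5 lay at -0.23, Sdha at -0.10, Ndufs1 at 0.07 and Sdhb at 0.59. The largest differences were those of Cox4i2, Atp5k and Ndufs4, at 1.59, 1.28 and 1.19. Control M01 also had the highest summed level of microglia markers (9 of 10 tested, P2ry12 not), 604 CPM, where the median of the Control libraries was 213 CPM, Dehydrated ran from 173 to 255 CPM and Rehydrated from 201 to 309 CPM. The part of length or of microglia in its nuclear values was not tested.

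**Figure D5:**
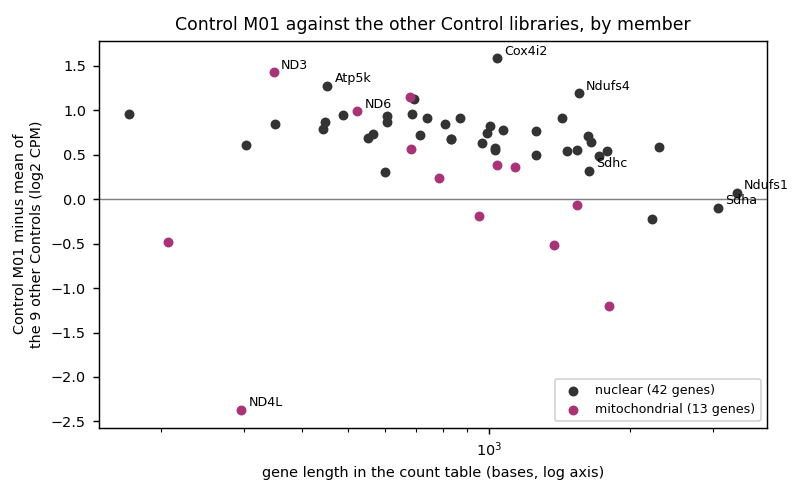
Difference of Control M01 from the mean of the 9 other Control libraries (log2 CPM) against gene length in the count table (bases, log axis) for each member. Nuclear members under 2000 bases all lie above 0, the 4 longer ones run from -0.23 to 0.59, and mitochondrial genes scatter from ND4L far below to ND3 at the top.

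The mitochondrial members also moved together from library to library, and the nuclear members did so more weakly. Over the 28 libraries without Control M01, with group means removed, all 78 pairs of mitochondrial genes had a positive correlation, with a median Pearson r of 0.54. ND4 followed the mean of the other 12 most closely (r of 0.90), and ND6 least (0.49). The 861 nuclear pairs had a median r of 0.23, with 673 above 0 and the lowest at -0.55. Ndufa4 (0.86), Cox5a (0.78) and Cox7a1 (0.77) followed the nuclear mean most closely, all 3 in complex IV, and Ndufaf5 (-0.30), Ndufaf1 (-0.09) and Sdha (-0.06) least. Between the sets the median r was 0.01 over 546 pairs. These values are descriptions, since the genes share each library's depth and scaling, and no such correlations were computed for other genes. The SD within groups was larger for mitochondrial genes, with a median of 0.34 on the log2 scale, than for nuclear ones, with 0.16. For all genes above 4 log2 CPM it was 0.16.

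The sexes were compared in their response to restriction, as labelled. No member, and no gene, passed the adjusted threshold (0.0% of all genes). At an unadjusted p under 0.05, 7 of 13 mitochondrial members and 3 of 42 nuclear members differed, where 6.05% of all genes did. Without Control M01, a male Control, 5 of 13 and 1 of 42 did, where 5.03% of all genes did, and the median difference between the sexes over nuclear members went from 0.24 to 0.05. The mitochondrial median for Dehydrated against Control was 0.26 in females and -0.24 in males. ATP6 lay at 0.34 and -0.51, ND3 at 0.48 and -0.39, and COX1 at 0.23 and 0.04. Set means in females were 10.22 ± 0.14 in Control (n = 5) and 10.48 ± 0.16 in Dehydrated (n = 6), and in males 10.47 ± 0.22 (n = 5) and 10.27 ± 0.12 (n = 4). This pattern depended on the label. With the letter in the library name in its place, the mitochondrial median difference between the sexes went from 0.52 to 0.09. By the letter, 1 of 13 mitochondrial members had an unadjusted p under 0.05, where 1621 of 17558 genes did. By the letter, 9 genes also passed the adjusted threshold, 0 of them members. Control F03, labelled male, lay at 10.86, the highest Control, and Dehydrated M02, labelled female, at 10.65. In the response to rehydration, 1 of 13 mitochondrial and 5 of 42 nuclear members had an unadjusted p under 0.05, where 6.18% of all genes did. Without Control M01 0 of 13 and 2 of 42 had, where 5.63% of all genes did.

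Further subunits and assembly factors are named in the RefSeq table but not by the authors, and 35 of them were tested. Of these 33 were lower in Dehydrated than in Control with a median of -0.11, where 50.8% of all genes were lower. Without Control M01 28 were, with a median of -0.04, where 49.1% of all genes were. In Rehydrated against Control 32 were lower with a median of -0.08, where 49.2% of all genes were. Without Control M01 18 were, with a median of -0.00, where 47.8% of all genes were. None was called by either tool, where edgeR called 0.125% and 0.0% of all genes. At an unadjusted p under 0.05, 1 and 4 were lower in the 2 comparisons, and 0 higher, in edgeR and in DESeq2. Among all genes 3.7% and 4.17% were lower, and 2.67% and 3.3% higher, at that p in edgeR. Without Control M01 0 and 1 were lower in edgeR, where 2.6% and 3.94% of all genes were. The catalytic subunits of the ATP synthase, Atp5f1a and Atp5f1b, lay at 0.02 and -0.07 in Dehydrated against Control, Atp5f1c, the rotor shaft, at -0.12, and Atp5if1, the inhibitor that stops the enzyme running backwards, at -0.07. Sdhd, a membrane anchor of complex II, lay at -0.06. The hypoxia-associated Ndufa4l2, with means of 3.16 ± 1.00 CPM in Control against 2.29 ± 0.731 CPM after restriction, lay at -0.46 (SE 0.22; -0.36 without Control M01). In Rehydrated, Ndufc1, a small subunit of complex I, lay at -0.50 (SE 0.15, adjusted p = 0.467).

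Genes around the respiratory chain, 141 tested on 8 lists, gave no call in any of the 3 comparisons with edgeR or DESeq2. At an unadjusted p under 0.05, edgeR had 4 lower and 0 higher in Dehydrated against Control (DESeq2 5 and 0), 3 lower and 1 higher in Rehydrated against Control (3 and 3), and 0 lower and 3 higher in Rehydrated against Dehydrated (0 and 6). Without Control M01 the balance in edgeR differed, with 1 lower and 2 higher, 2 lower and 4 higher, and 0 lower and 9 higher. The shares of all genes at that p, with and without the library, are those given above for each comparison. In Dehydrated against Control, 16 of 17 genes for cytochrome c, electron carriers and coenzyme Q were lower with a median of -0.08 (-0.01 without Control M01), among them Coq8b at -0.28. Of 23 assembly factors outside the naming rule 19 were lower with a median of -0.08 (-0.05 without it), and of 19 carriers, pores and outer membrane proteins 16, with a median of -0.06 (-0.01 without it). Slc25a5, which exchanges ADP for ATP across the inner membrane, lay at -0.17. Mitochondrial antioxidant and uncoupling genes had 10 of 12 lower with a median of -0.11 (-0.03 without it).

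In Dehydrated against Control the citric acid cycle had 11 of 19 genes lower with a median of -0.02 (7 lower and 0.01 without Control M01). Glycolysis had 7 of 12 lower with a median of -0.00, and 2 of 12 with a median of 0.03 without Control M01. Genes that maintain mitochondrial DNA and RNA had 16 of 26 lower with a median of -0.03 (15 lower and -0.01 without it). Tfam, which packages mitochondrial DNA and starts its transcription, lay at -0.16 (SE 0.08; -0.10 without Control M01) and in Rehydrated against Dehydrated at 0.17 (SE 0.08). Nuclear regulators of mitochondrial genes had 6 of 13 lower with a median of 0.01 (0.00 without Control M01), and Ppargc1b, a coactivator of mitochondrial biogenesis, lay at 0.25 (SE 0.19; 0.14 without it).

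No column in the authors' deposited table for the first comparison is coded for Control M01. In the authors' deposited table for Dehydrated against Control, 30 of 42 nuclear members were lower with a median of -0.04, 10 of 13 mitochondrial members were higher with a median of 0.09, and 0 of 55 passed an adjusted p of 0.05, where 46 genes did. In the authors' deposited table for Rehydrated against Control, 25 of 42 nuclear members were lower with a median of -0.01, and 12 of 13 mitochondrial members were higher with a median of 0.18. The smallest adjusted p of a member in the authors' deposited tables was 0.246, for COX1 in Rehydrated against Control, and 0 members passed, where 4 genes did.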

How the data were processed

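Polyadenylated RNA was measured in 29 libraries, per the labels. Per the file headers, the authors made the counts, whole numbers of fragments per gene, with featureCounts 1.6.2 on mJacJac1, using its paired option and none for strand; the sources used here do not name the aligner. The authors' deposited tables hold a log2 fold change, its standard error, a p-value and an adjusted p-value per gene; DESeq2 is named in the submitters' processing notes. Their 56 per-library columns were not used.

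The fit used edgeR 4.0.16 (R 4.3.3) with TMM scaling and robust quasi-likelihood terms for group and sex, with 25 residual degrees of freedom. The filter filterByExpr removed 11612 genes, with 0.126% of counts, and p was adjusted by the Benjamini-Hochberg method over the 17558 left, at a threshold of 0.05. A standard error is the absolute log2 fold change over the root of F. Log2 CPM used a prior count of 1. Alternatives were DESeq2 1.42.0, other scalings, filters and covariates, a replicate block and each library left out. Summaries used Python 3.11.15, numpy 2.4.6 and pandas 2.3.3, and figures matplotlib 3.10.9. RefSeq names required that 0.5 or more of each span be shared. Of the 42 nuclear members 41 had such a match, and for 37 it had the NCBI gene number that the authors' description gives.

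Each library was taken as 1 animal, because samples are numbered within groups and animals were singly housed; if not, p-values measure only the spread between these samples. No 2 libraries of a group were alike within sampling noise (126 pairs, chi-square over degrees of freedom 8.73 or more). Names shared between groups did not pair libraries: deviations had a median correlation of 0.02 over 19 pairs, and 2 exceeded 0.1. Members and lists were chosen with earlier results of these data known. The rule named the mitochondrial genes, core subunits, isoform pairs and, per comparison, the 3 nuclear members with the largest rise and fall and the 5 with the smallest p, with up to 2 genes of each list. The values of 1 nuclear member are not reported here; it stays in the counts and medians. Ndufc1, Ndufaf1 and Ndufaf6 fall outside it; their values were known when they were picked.

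On data simulated for Dehydrated against Control over 17558 genes, with 50 genes changed at each fold, the test called 1 at 1.1-fold, 11 at 1.25-fold, 36 at 1.5-fold and 47 at 2-fold, and 1 unchanged gene. Differences the size of most members' were thus mostly below what this depth and spread could show.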

Additional observations from a re-analysis of the deposited data

Results flagged for a closer look

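In 126 groups of library values (each named member and each set, in each treatment group), 30 had a library far from the others by Dixon's criterion; chance flags about 1 in 20 groups. Of these, 14 were Control M01, 9 Rehydrated M04, 4 Control F03, 2 Dehydrated M02 and 1 Dehydrated M05. Values are log2 CPM unless a percentage is named, and values of 1 library across genes are not independent.

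Control M01 lay above the other Controls in its mean over the nuclear members, at 6.63 against 5.75 to 6.05, and in their share of counts, at 0.58% against 0.35% to 0.41%. Among complex I genes it stood out in Ndufa13 (8.11), Ndufa8 (7.53), Ndufa9 (6.91), Ndufs3 (6.88), Ndufs4 (7.77) and Ndufv1 (7.38). In complex IV it did so in Cox4i2 (2.83 against 0.47 to 1.71), Cox5a (7.64), Cox7a1 (7.68) and Ndufa4 (8.5), and in complex V in Atp5k (7.05 against 5.61 to 5.96). In ND4L it was low, at 8.0 against 9.96 to 11.24.

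Rehydrated M04 lay above the other Rehydrated libraries in ND6 (8.84 against 7.5 to 8.02) and Ndufa13 (7.4). It lay below them in Ndufa8 (6.5), Ndufs3 (5.73), Sdhc (6.2), Uqcr11 (2.17), Uqcrc2 (6.65), Cox5a (6.49 against 6.92 to 7.24) and Atp5k (5.44).

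Control F03 lay above the other Controls in ND4 (11.8 against 10.49 to 11.18), in COX3 (13.41), in the mitochondrial mean (10.86 against 10.03 to 10.43) and in the mitochondrial share of counts (3.92% against 2.6% to 3.26%). Dehydrated M02 was high in Atp5e (6.08) and Atp5g2 (6.64), and Dehydrated M05 was low in ND6 (5.88 against 7.41 to 7.74). The causes were not tested.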

How the results depend on the processing

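No member passed the threshold in any of the 3 treatment comparisons under any of the 29 fits that left out 1 library or the 12 other settings. Leaving out 1 library, the nuclear median ran from -0.15 to -0.04 in Dehydrated against Control and from -0.13 to -0.01 in Rehydrated against Control, both highest without Control M01, and from 0.00 to 0.04 in Rehydrated against Dehydrated. The mitochondrial median ran from -0.01 (without Dehydrated F07) to 0.13 (without Control F03), from 0.07 (without Rehydrated M04) to 0.22 (without Control F03), and from 0.04 (without Rehydrated M04) to 0.13 (without Rehydrated F05). With the replicate block, which left 11 residual degrees of freedom, the mitochondrial medians were -0.02, 0.10 and 0.14, and the block changed no call of a member. Taking the mitochondrial genes out of the scaling together with Control M01 was chosen after seeing the data and gave a nuclear median of -0.04 and a mitochondrial median of 0.09 in Dehydrated against Control. Over the named members and all settings, the sign of a log2 fold change differed from that with all libraries in 89, 55 and 71 of 1558 values per comparison. The number of all genes called ran from 10 to 27 without 1 library and from 11 to 40 in other settings in Dehydrated against Control (22 with all libraries), from 0 to 2 and 0 to 18 in Rehydrated against Control (0), and from 2 to 9 and 1 to 16 in Rehydrated against Dehydrated (4). The spread between libraries and the low level of Cox4i2 limit what could be called.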
